A study of Mus musculus with 8 samples.

Results

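Kidney and liver were compared by bulk RNA sequencing, with 2 kidney and 2 liver libraries of the 8 libraries in the series, the others being from lung and small intestine. Every library was made from polyadenylated RNA of whole tissue from male mice aged 6 to 10 weeks. The strain was C57BL/6, given as C57BL/6J in the study's methods, and the study describes the libraries of a tissue as biological replicates. By its methods, all of these tissues were taken from each mouse. The labels do not say which libraries came from the same mouse. Values are FPKM (fragments counted on a gene, scaled to its length and to the library's depth), a level that can be compared between genes, multiplied here by 1 factor per library so that the median gene had the same level in the 4 libraries. Of the 52195 genes in the table, 11476 reached an FPKM of 1 in 2 or more of the 4 libraries and were tested. The reads counted on genes, recovered from the values, were 21444675 and 17310074 in kidney and 9164187 and 10324317 in liver. At this depth 3 reads on 1 kb of exons corresponded to a rescaled FPKM between 0.0973 and 0.410, a floor that covers counting error only. In whole tissue, fewer cells of a type and less RNA per cell cannot be told apart.

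The kidney filters blood in the glomerulus and recovers water, salts, glucose, amino acids and phosphate along the tubule, whose segments each carry their own transporters. The liver secretes most plasma proteins, makes bile acids, and detoxifies ammonia through the urea cycle. Both consist mainly of epithelial cells rich in mitochondria and peroxisomes, both make glucose, and both handle drugs and other foreign compounds. The comparison therefore addresses which genes set a filtering and an exporting epithelium apart, and which abundant genes the tissues hold in common.

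The libraries of each tissue were not equally alike. Across the tested genes the Pearson correlation of log2(FPKM + 1) was 0.963 between the kidney libraries and 0.985 between the liver libraries. Between the kidney libraries 427 genes differed by more than 1 on the log2 scale, and 189 genes between the liver libraries. The kidney difference ran with the summed length of a gene's exons. Among 8629 genes with a mean of 1 or more in both tissues, the median of kidney replicate 1 minus replicate 2 was -0.56 for the 2158 genes with the shortest exons (up to 1987 bases) and 0.19 for the 2157 genes with the longest (from 5815 bases). The same medians between the liver libraries were 0.03 and 0.03. Across these genes the Spearman correlation of exon length was 0.577 with the kidney difference and -0.00410 with the liver difference, a description over genes that share their libraries. For kidney minus liver the medians of the shortest and longest genes were 0.08 and -0.12, and they became 0.35 and -0.20 without kidney replicate 1 and -0.14 and 0.03 without kidney replicate 2. The part of exon length in the single-gene differences was not tested. Red-cell transcripts also differed, with Hba-a1 (an alpha globin) at 124 and 576 in kidney and 187 and 176 in liver.

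**Figure D1:**
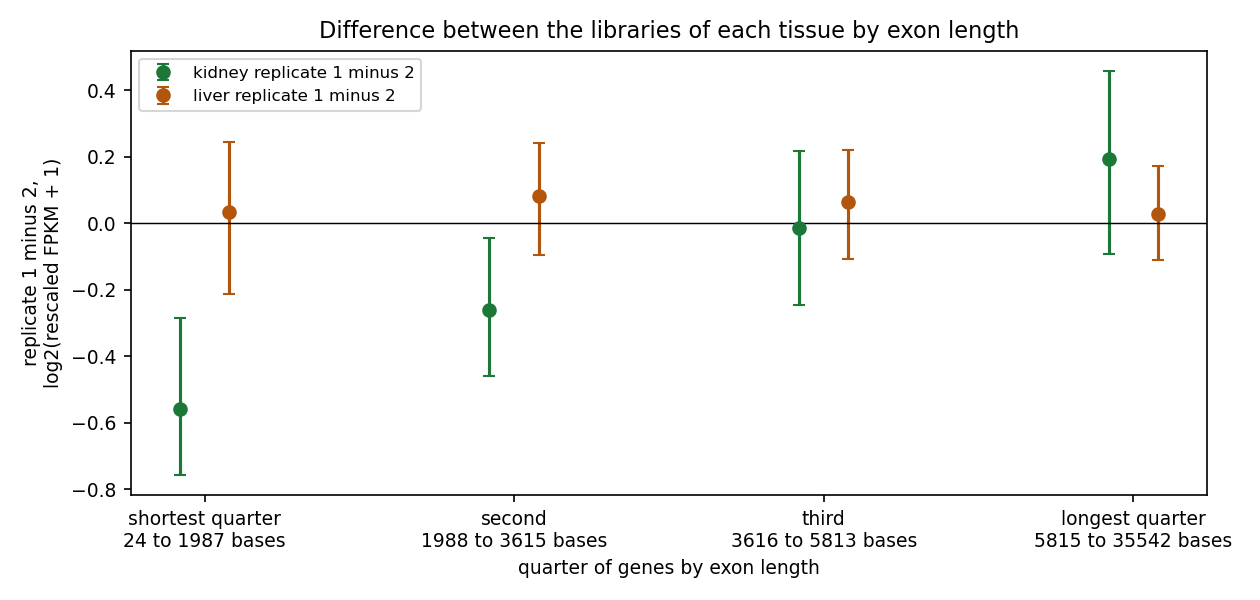
Difference between the libraries of each tissue, as replicate 1 minus replicate 2 in log2(rescaled FPKM + 1) on the vertical axis, for genes divided by exon length into 4 groups of 2157 or 2158 genes on the horizontal axis. Points are medians over genes and bars run from the lower to the upper quartile. The kidney medians run from -0.56 to 0.19 and the liver medians stay between 0.03 and 0.08.

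The tissues differed in 3236 of the 11476 genes (28.2% called, at a limma adjusted p below 0.05 and a log2 difference beyond 1). Of these, 1665 genes were higher in kidney (14.5% of genes tested) and 1571 were higher in liver (13.7%). The median log2 difference over all genes was 0.00 and the median size of a difference was 0.51. Large differences were more often on the liver side, where 223 genes lay beyond a log2 difference of 5, against 74 on the kidney side. Beyond a log2 difference of 3 lay 312 genes called in kidney and 463 called in liver. Both kidney libraries lay above both liver libraries in 35.1% of the tested genes, and below them in 33.7%. The balance of the calls depends on the scaling. With the values as deposited, the median gene was 0.40 higher in kidney and 69.8% of the calls were on the kidney side, against 51.5% here. With mitochondrial genes left out and equal sums, the median gene was 0.85 higher and the share was 84.3%. No call changed direction in these settings. A gene that is silent in a tissue passed the filter only through the other, which was so for 1370 genes through kidney and 938 through liver. Among the 9168 genes that reached an FPKM of 1 in a library of each tissue, 7.94% were called higher in kidney and 9.96% higher in liver.

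**Figure D2:**
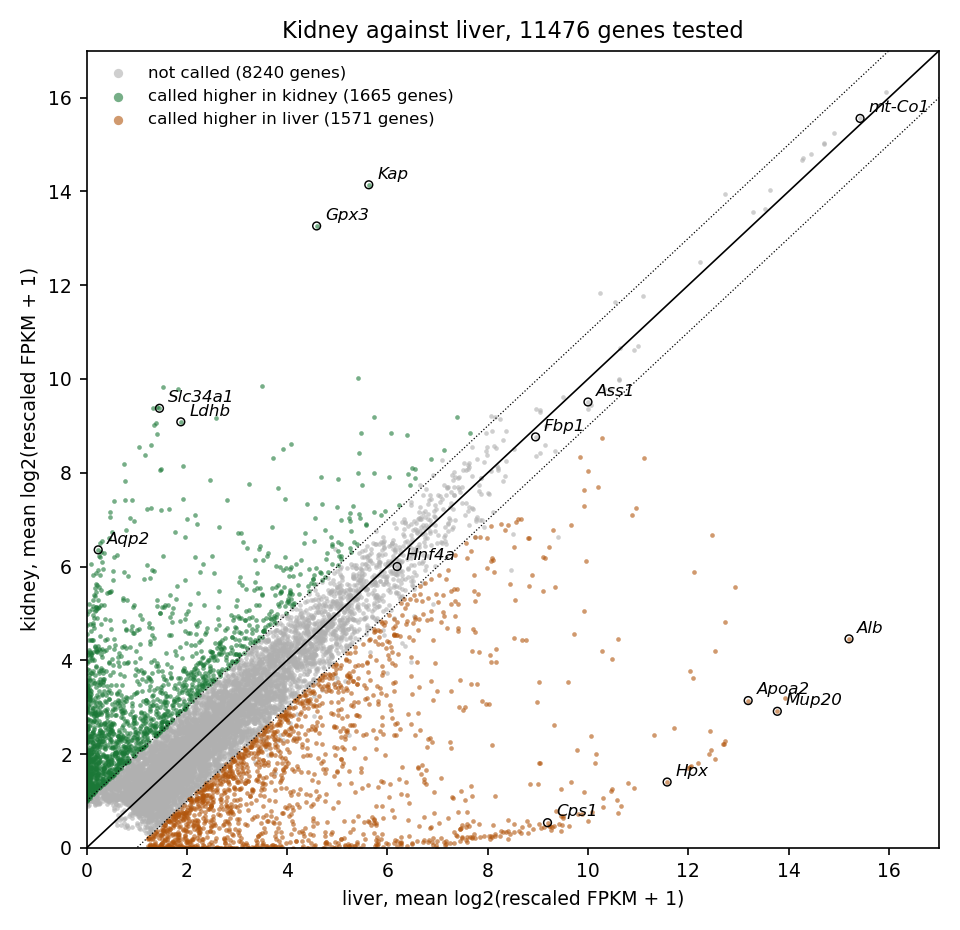
Mean log2(rescaled FPKM + 1) of the 2 kidney libraries (vertical axis) against that of the 2 liver libraries (horizontal axis) for the 11476 genes tested, with the line of equality and dotted lines at a difference of 1. The 1665 green genes were called higher in kidney, the 1571 brown genes higher in liver, and the 8240 grey genes were not called. Fbp1 lies near the line of equality, and Alb and Kap lie far from it on opposite sides.

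The largest differences toward kidney included secreted, reabsorptive and brush-border products. Kap, the kidney androgen-regulated protein of the proximal tubule (chr6:133849851-133853762, GRCm38), had an FPKM of 10539 and 30983 in kidney and 41.8 and 56.1 in liver. Its kidney values differed by more than those of any other leading kidney gene, and the lower of them was still far above both liver values. Gpx3, the glutathione peroxidase that the kidney releases into plasma (chr11:54902453-54910377), had 8866 and 10902 in kidney and 21.3 and 24.9 in liver. The log2 difference was 8.68 for Gpx3 (SE 0.41, limma adjusted p = 1.01e-06) and 8.51 for Kap (SE 0.60, adjusted p = 9.22e-06). Klk1, the tissue kallikrein that cuts kininogen, followed at 928 and 879 in kidney and 1.78 and 2.01 in liver. Umod, the uromodulin that the thick ascending limb sheds into urine, was at 523 and 542 in kidney and 1.29 and 1.96 in liver. Separate groups were a condition for the choice of the leading genes.

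Transport and metabolism of the proximal tubule made up most of the other leading kidney genes. Slc34a1, the main renal sodium-phosphate cotransporter (chr13:55398187-55415592), was at 686 and 641 in kidney and 1.67 and 1.81 in liver, a log2 difference of 7.92 (SE 0.28, adjusted p = 3.74e-07). Slc22a12, the urate transporter of the brush border, was at 359.8 and 386 in kidney and 0.851 and 1.30 in liver. Slc7a13, an amino acid transporter, and Tmem27 (collectrin), a partner of amino acid transporters, had log2 differences of 7.67 and 8.05. Miox, which opens the inositol ring, was at 683 and 1149 in kidney and 2.73 and 2.36 in liver. Akr1c21 (a hydroxysteroid dehydrogenase), Mep1a (the brush-border protease meprin alpha) and Acsm2 (a medium-chain acyl-CoA synthetase) had log2 differences of 7.98, 7.44 and 7.43. Together the 12 leading kidney genes took 14.9% and 20.3% of the summed non-mitochondrial FPKM in the kidney libraries and 0.0175% and 0.0238% in the liver libraries. In 11 of them with recovered reads, the liver level was a median of 0.228% and 0.272% of the mean kidney level.

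The largest differences toward liver were mostly in genes of proteins exported into blood. Alb (albumin, chr5:90460897-90476602) had an FPKM of 43410.4 and 32861 in liver and 10.8 and 39.9 in kidney, a log2 difference of -10.75 (SE 0.63, adjusted p = 3.35e-06). Ahsg (fetuin A) was at 7066 and 5027 in liver and 1.08 and 5.56 in kidney. Apoa2, an apolipoprotein of high-density lipoprotein, was at 9562 and 9182 in liver and 4.05 and 14.4 in kidney. In all 3 genes kidney replicate 2 was the higher of the kidney libraries, and both lay far below the liver values. Hpx (hemopexin, which binds heme) and Rbp4 (the retinol carrier) had log2 differences of -10.17 and -9.64. The protease inhibitors Serpina3k and Serpina1e had -10.44 and -9.93.

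The other leading liver genes included members of the major urinary protein cluster on chromosome 4, which codes for pheromone carriers made in the male liver and passed into urine by the kidney. Mup20 (chr4:62050234-62054158) was at 11532 and 17042 in liver and 2.90 and 13.5 in kidney, a log2 difference of -10.86 (SE 0.62, adjusted p = 2.7e-06). Mup3, Mup13 and the pseudogene Mup-ps19 had log2 differences of -10.74, -10.42 and -10.48, and the predicted gene Gm21320, for which no coordinates were matched, had -10.49. All 18 Mup genes tested were called higher in liver. The Mup genes are near-identical, so the split of reads among them is uncertain. The 12 leading liver genes took 27.2% and 28.7% of the non-mitochondrial FPKM in liver and 0.0193% and 0.0565% in kidney.

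The trace of these transcripts in kidney differed between its libraries. The 12 leading liver genes were all higher in kidney replicate 2 than in replicate 1, by a median ratio of 4.94. For the 11 of them with recovered reads, the median kidney level was 0.0222% of the liver mean in replicate 1 and 0.118% in replicate 2. The source of these reads was not tested. With either kidney library left out in turn, every one of the 24 leading genes stayed called in its direction.

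**Figure D3:**
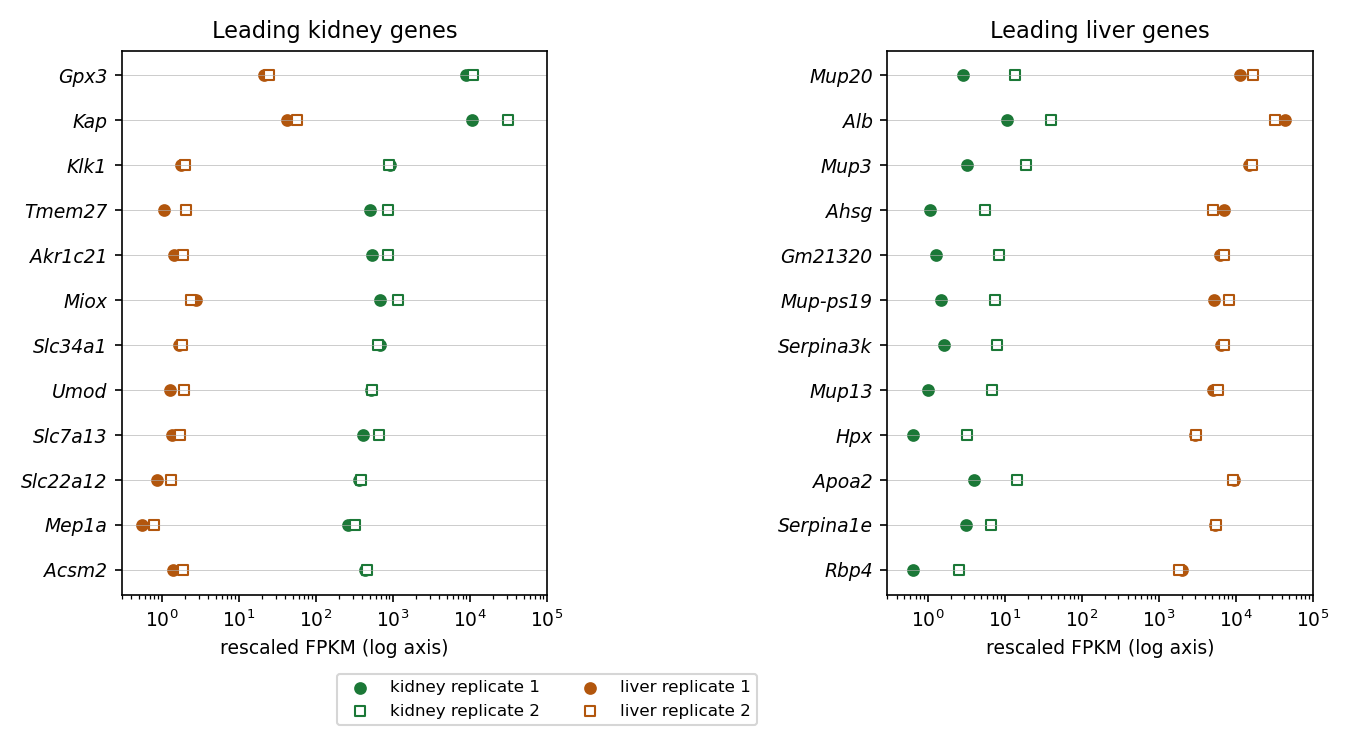
Rescaled FPKM (log axis) of the 12 leading kidney genes (left) and the 12 leading liver genes (right) in each of the 4 libraries. Green marks are kidney and brown marks liver, filled for replicate 1 and open for replicate 2. The groups are separate for all 24 genes, which was a condition of their choice. The open green marks lie to the right of the filled ones for each leading liver gene.

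Genes of the nephron's tubule segments were on the kidney side. All 15 listed transport genes of the proximal tubule were called higher in kidney, with a median log2 difference of 4.95 against 0.00 over all genes, and 9 of them passed the filter through kidney alone. Slc5a2, the glucose transporter SGLT2, was at 81.4 and 75.2 in kidney and 0.0944 and 0.374 in liver. Slc22a6, the organic anion transporter OAT1, was at 126 and 163 in kidney and 0.306 and 0.458 in liver. Lrp2 (megalin, the endocytic receptor for filtered protein) was at 45.5 and 25.5 in kidney and 0.0901 and 0.182 in liver, a log2 difference of 4.95 (SE 0.29, adjusted p = 3.21e-06). The smallest differences of the list were those of Aqp1, the water channel, at 245 and 264 in kidney and 48.3 and 35.3 in liver, and of Slc4a4, the bicarbonate exit path, at 48.5 and 38.8 in kidney and 5.26 and 5.19 in liver. Both were also expressed in liver, with separate groups, and Aqp1 missed the threshold without liver replicate 2 (log2 difference 2.37, adjusted p = 0.0566). Slc3a1, the partner subunit of the cystine transporter, was also found in liver, at 8.59 and 7.75 against 80.5 and 85.5 in kidney.

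In the thick ascending limb all 6 listed genes were called higher in kidney, 5 of them through kidney alone, with a median of 4.60. Slc12a1, the sodium-potassium-chloride cotransporter, was at 97.0 and 54.3 in kidney and 0.237 and 0.169 in liver. In the distal convoluted tubule 5 genes passed the filter, 4 of them through kidney alone, and 4 of the 5 were called higher in kidney. Klhl3, a regulator of salt transport, was not called, at 2.80 and 1.31 in kidney and 0.859 and 0.696 in liver, but was called higher in kidney without kidney replicate 2 (log2 difference 1.12, adjusted p = 0.0178) and with mitochondrial genes left out (1.38, adjusted p = 0.0278). Trpm6 did not pass the filter. Slc12a3, the thiazide-sensitive cotransporter, was at 58.4 and 17.3 in kidney and 0.0861 and 0.156 in liver. Its kidney libraries differed over 3-fold, and both lay above liver. Wnk1, the kinase upstream of these cotransporters, was at 7.47 and 2.81 in kidney and 1.87 and 1.72 in liver, a log2 difference of 1.02 (adjusted p = 0.0471) that lost its call without kidney replicate 1 (0.45), without liver replicate 1 (adjusted p = 0.300) and without liver replicate 2 (adjusted p = 0.325).

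In the collecting duct, the 5 principal-cell genes that passed did so through kidney alone, and all were called higher in kidney (median 5.01). Avpr2, the vasopressin receptor, did not pass, at 0.0449 and 0 in kidney and 0.0474 and 0 in liver. Aqp2, the vasopressin-regulated water channel, was at 55.7 and 117 in kidney and 0.193 and 0.153 in liver, higher in kidney replicate 2, while Slc12a1 and Slc12a3 were higher in replicate 1. Hsd11b2, which inactivates glucocorticoids, was at 69.2 and 62.0 in kidney and 0.0743 and 0.0589 in liver. All 7 intercalated-cell genes were called (median 3.21), 6 of them through kidney alone. Of these, Atp6v0d2 was not called without kidney replicate 1, kidney replicate 2 or liver replicate 2 (adjusted p from 0.0560 to 0.0852). Slc26a4 (pendrin, a chloride-bicarbonate exchanger) was at 14.4 and 11.1 in kidney and 0.352 and 0.0349 in liver. The transcription factor Foxi1 was at 6.56 and 4.34 in kidney and 0 and 0 in liver.

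Podocytes, the filtering cells of the glomerulus, left a weaker trace. Of the 4 podocyte genes that passed, 3 were called higher in kidney and 1 higher in liver. Podxl (podocalyxin) was at 16.3 and 7.12 in kidney and 1.15 and 0.849 in liver and was called higher in kidney, as was Synpo (log2 difference 1.16), which was not called without kidney replicate 1 (0.86) or without liver replicate 1 (adjusted p = 0.0563). Nphs1 (nephrin) and Wt1 did not reach the filter. Of the renal hormone and vitamin D genes, all 5 that passed were called higher in kidney, each through kidney alone. Ren1 (renin) was at 15.1 and 17.7 in kidney and 0 and 0 in liver. Kl (klotho, the co-receptor for FGF23) was at 32.4 and 21.8 in kidney and 0.103 and 0.0813 in liver. Cyp24a1, which inactivates vitamin D, was at 7.88 and 8.22 in kidney and 0 and 0.0913 in liver, and Vdr, the vitamin D receptor, was at 27.8 and 24.9 in kidney and 0.194 and 0.249 in liver. Epo and Cyp27b1 did not pass.

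On the liver side, all 25 listed plasma proteins were called higher in liver, with a median log2 difference of -8.26, and 7 of them passed through liver alone. The smallest difference was that of Apob, the protein of very-low-density lipoprotein, at 123 and 83.6 in liver and 3.05 and 1.85 in kidney, a log2 difference of -4.92 (SE 0.31, adjusted p = 4.5e-06). Ttr (transthyretin) held the highest kidney values of the list, at 4759 and 4139 in liver and 36.6 and 92.0 in kidney. The fibrinogen chains Fga, Fgb and Fgg had log2 differences of -7.70, -9.23 and -8.32. Vtn (vitronectin) and Plg (plasminogen) had -9.31 and -8.84. In 23 of the 25 genes the kidney value was higher in replicate 2 than in replicate 1.

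The 10 bile acid genes that passed were also all called higher in liver, with a median of -5.14, 7 of them through liver alone. Cyp7a1, the rate-limiting enzyme of bile acid synthesis, was at 3.73 and 8.80 in liver and 0 and 0 in kidney. Cyp8b1, the sterol 12-alpha-hydroxylase, was at 117 and 170.0 in liver and 0.0333 and 0.0580 in kidney. Slc10a1 and Abcb11, the uptake and export pumps of the hepatocyte, had log2 differences of -7.33 and -6.18. Of the alternative route, Cyp27a1 was at 309 and 232 in liver and 14.9 and 14.4 in kidney, and Cyp7b1 was at 106 and 128 in liver and 41.0 and 65.9 in kidney, a log2 difference of -1.15 (SE 0.35, adjusted p = 0.0323). The Cyp7b1 call was lost without kidney replicate 1 (-0.78), without liver replicate 1 (-1.30) and without liver replicate 2 (-1.02). It was also lost with the values as deposited (-0.63), with quantile normalization (-0.61) and with mitochondrial genes left out (-0.06).

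Of the 7 listed urea cycle genes 6 were called higher in liver, with a list median of -3.87, and Ass1, at the middle step, was not called. Of the 7, 4 passed the filter through liver alone. Cps1, the entry enzyme of the cycle, was at 628 and 542 in liver and 0.128 and 0.865 in kidney, and Otc, which makes citrulline, had a log2 difference of -7.26. In Cps1 kidney was near 0. Ass1, which joins citrulline and aspartate, was at 604 and 876 in kidney and 1316 and 793 in liver, with overlapping groups and a log2 difference of -0.49 (95% interval -1.62 to 0.64), though with quantile normalization it was called higher in kidney (1.53, adjusted p = 0.00103). Asl, the following enzyme, was called higher in liver, at 128 and 105 in liver and 25.2 and 32.0 in kidney, a difference that missed the threshold without liver replicate 1 (adjusted p = 0.0677). Arg1, the last enzyme, was at 737 and 835 in liver and 0.131 and 0.685 in kidney. The kidney is known to make arginine from citrulline through Ass1 and Asl.

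Marker genes of both ends of the liver lobule were present. Of the 7 listed periportal genes all were called higher in liver, 5 of them through liver alone. Hal (histidase) was at 70.6 and 73.9 in liver and 0.0117 and 0.0509 in kidney. Cyp2f2, a cytochrome P450, was at 574 and 453 in liver and 1.1 and 2.15 in kidney. Of the 6 pericentral genes that passed, 2 did so through liver alone, and 5 were called. Cyp1a2 was at 322 and 287 in liver and 0.0966 and 0.309 in kidney. Cyp2e1, which metabolizes ethanol, was at 2679 and 1855 in liver and 297 and 339.7 in kidney, and its call was lost with either liver library left out (adjusted p = 0.0947 and 0.0593). Oat (ornithine aminotransferase) was at 601 and 365 in liver and 52.8 and 57.9 in kidney. Glul (glutamine synthetase) was not called, at 50.7 and 84.5 in liver and 48.8 and 37.5 in kidney, with separate groups.

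**Figure D4:**
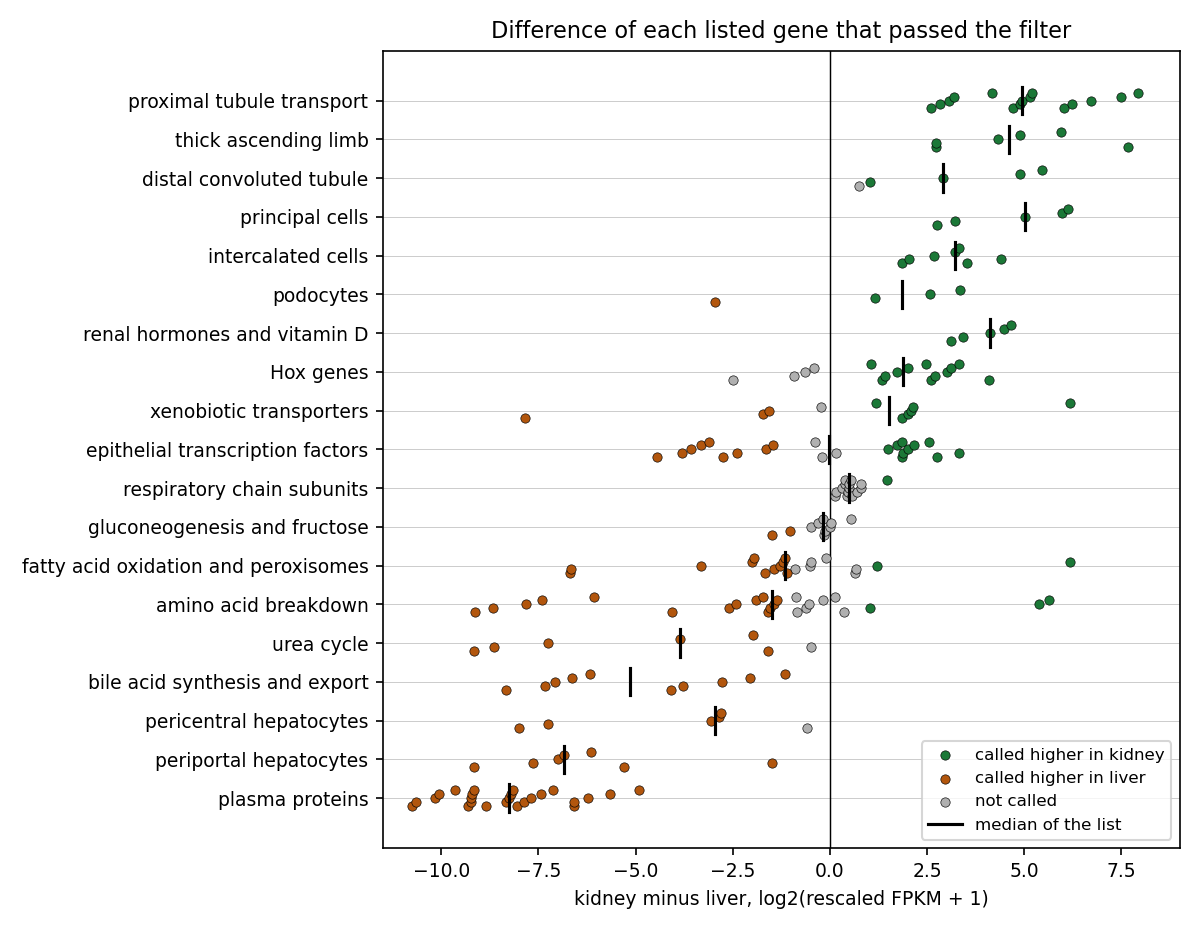
Kidney minus liver difference in log2(rescaled FPKM + 1) on the horizontal axis for every listed gene that passed the filter, with 1 list per row. Green points were called higher in kidney, brown points higher in liver, grey points were not called, and the black bar is the median of the list. The tubule lists lie to the right, with medians from 2.90 to 5.01, the plasma proteins lie to the left with a median of -8.26, and the gluconeogenesis and respiratory chain lists lie near 0.

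Glucose and fructose metabolism was compared through 10 genes. Of these, all 10 passed in both tissues, 2 were called higher in liver (20%, against 9.96% of all genes that passed in both tissues), 8 were not called, and the median log2 difference was -0.18. Fbp1, the gluconeogenic fructose bisphosphatase, was at 381 and 494 in kidney and 525 and 466 in liver, a log2 difference of -0.19 (95% interval -1.13 to 0.76). G6pc, which releases free glucose, was at 177 and 194 in kidney and 209.7 and 322 in liver (interval -1.38 to 0.40). For both genes the interval reaches beyond 1 on the log2 scale, so a difference of that size is within the error. The called genes were Pck1, the phosphoenolpyruvate carboxykinase, at 415 and 253 in kidney and 1091 and 772 in liver (log2 difference -1.50, adjusted p = 0.0325), and Slc2a2, the glucose transporter GLUT2, at 17.5 and 16.0 in kidney and 36.4 and 34.3 in liver (log2 difference -1.04, adjusted p = 0.0127). Both calls were lost without kidney replicate 2 (-1.11 and -0.95) and with either liver library left out (adjusted p of at least 0.152). Khk (ketohexokinase) was at 187 and 282 in kidney and 167 and 149 in liver and was not called. With the values as deposited, Khk was called higher in kidney, with quantile normalization Fbp1, Khk and Sord were among those called higher in kidney, and with mitochondrial genes left out Khk and Slc37a4 were, while neither Pck1 nor Slc2a2 was called in these 3 scalings.

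Amino acid breakdown was mixed. Of 24 listed genes, 14 were called higher in liver, 3 higher in kidney and 7 were not called, and the median log2 difference was -1.50. The 14 became 9 with either liver library left out and 8 with mitochondrial genes left out. The steps of tyrosine breakdown differed among themselves. Tat (tyrosine aminotransferase) was at 1122 and 784 in liver and 0.202 and 1.29 in kidney, and Hpd at 888 and 678 in liver and 10.8 and 10.3 in kidney. Fah, at the end of the same route, was closer between the tissues, at 247 and 213 in liver and 110.4 and 146 in kidney. It was not called, but was called higher in liver without kidney replicate 2. The kidney genes included Dao (D-amino acid oxidase) at 54.7 and 67.5 in kidney and 0.139 and 0.367 in liver. Ddo, the oxidase of D-aspartate, was at 4.21 and 3.46 in kidney and 1.35 and 1.41 in liver and was not called without kidney replicate 1 or with either liver library left out. Gatm, which makes the creatine precursor, was at 199 and 265 in kidney and 4.42 and 4.66 in liver. Gamt, which completes creatine, was called in the opposite direction, at 79.8 and 57.7 in liver and 9.32 and 11.7 in kidney.

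Of 19 genes of fatty acid oxidation and peroxisomes, 11 were called higher in liver, 2 higher in kidney and 6 were not called, with a median of -1.15. The 11 depended on single libraries and on the scaling, becoming 6 and 7 without kidney replicates 1 and 2, 3 and 4 without liver replicates 1 and 2, 6 with the values as deposited or quantile normalization, and 3 with mitochondrial genes left out. Cat (catalase) was at 1119 and 929 in liver and 236 and 291 in kidney. Acadm, the medium-chain dehydrogenase, was called higher in kidney, at 123 and 148 in kidney and 64.1 and 52.2 in liver, and neither Cat nor Acadm was called with either liver library left out. Cpt1a, the entry step to mitochondria, was at 52.1 and 47.3 in kidney and 53.7 and 52.1 in liver and was not called. The fatty acid hydroxylases Cyp4a10 and Cyp4a14 differed between the liver libraries, with Cyp4a10 at 134 and 120.1 in kidney and 458 and 122 in liver and Cyp4a14 at 15.1 and 7.65 in kidney and 223 and 60.2 in liver. Of the 15 respiratory chain subunits, Cycs (cytochrome c) was called higher in kidney, at 82.9 and 139 in kidney and 37.3 and 38.5 in liver, and 14 were not called, with a list median of 0.48. In 14 of these 15 genes kidney replicate 1 was lower than replicate 2. The number called higher in kidney was 5 without kidney replicate 1, 0 with either liver library left out (limma), 6 with the values as deposited, 8 with quantile normalization and 15 with mitochondrial genes left out.

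The abundant genes held in common were counted as those with a rescaled FPKM of 100 or more in all 4 libraries and a log2 difference of less than 1 between tissues. Of 150 genes abundant in all 4 libraries, 124 met this rule. They were 51.0% of the 243 genes abundant in both kidney libraries and 28.5% of the 435 genes abundant in both liver libraries. The 124 were 21 mitochondrial genes or their nuclear copies, 11 ribosomal protein genes, 11 predicted genes (most of them pseudogenes), 4 haemoglobin genes and 77 others. Mitochondrial genes and their copies took 63.1% and 68.4% of the summed FPKM in kidney and 43.6% and 40.5% in liver. The copies had values close to the genes, as for Gm28437 (22166 and 50986 in kidney) and mt-Co3 (21881 and 50387). The predicted gene Gm13340 has the same exon length as mt-Co1 (1545 bases). How reads were divided between genes and copies is not known, so these counts and shares are uncertain. mt-Co1, a subunit of cytochrome oxidase, was at 37415 and 62079 in kidney and 45526 and 42552 in liver. The rule is on the observed difference, and the 95% interval stayed within 1 in either direction for only 12 of the 124 genes.

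Outside those groups the common genes included housekeeping genes and enzymes. Eef1a1 (translation elongation) was at 731 and 1066 in kidney and 1416 and 1146 in liver. Ubb, a ubiquitin precursor, was at 509 and 833 in kidney and 582 and 421 in liver. Near-identical copies make the values of both genes uncertain. Sod1, which removes superoxide, was at 502 and 952 in kidney and 1199 and 958 in liver. Gpx1, which removes peroxides, was at 493 and 876 in kidney and 1157 and 897 in liver. In both genes kidney replicate 2 was just below the lower liver value and kidney replicate 1 well below it. Sord, the sorbitol dehydrogenase that makes fructose, was at 425 and 617 in kidney and 615 and 536 in liver. The membrane protein gene Itm2b was at 285 and 455 in kidney and 393 and 342 in liver. Hspa8 (a chaperone) was at 498 and 451 in kidney and 411 and 264 in liver. Gapdh (glycolysis) was at 330.0 and 522 in kidney and 358 and 280.4 in liver. Cyb5a (cytochrome b5) was at 237 and 489 in kidney and 559.9 and 495 in liver. Inmt, a methyltransferase, was at 255 and 424 in kidney and 582 and 425 in liver. By the rule of a log2 difference of less than 1, none of these genes could be called with the main settings. Their direction and calls depend on the scaling. With mitochondrial genes left out and equal sums, the log2 differences of Eef1a1, Ubb, Sod1, Gpx1, Sord, Itm2b, Hspa8, Gapdh, Cyb5a and Inmt were all above 0, from 0.47 for Gpx1 to 1.63 for Hspa8, and Ubb, Itm2b, Hspa8 and Gapdh were called higher in kidney. With quantile normalization these genes other than Cyb5a and Inmt were called higher in kidney. Without kidney replicate 2, Cyb5a was called higher in liver (-1.12), and with the values as deposited Hspa8 was called higher in kidney (1.04).

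Some of the abundant common genes were low in the other tissues of the series. Rescaled over all 8 libraries, 14 of the 124 had a lowest kidney or liver value at least 4 times the highest value in lung and small intestine. These included Ass1, Sord, Fbp1, Rida, Pcbd1, Cyp2j5, G6pc, Nat8f1, Gabarapl1, Fah, Cyp4a10 and Pecr. The ratio was 285 for Cyp2j5, an arachidonic acid epoxygenase. It was 92.8 for Ass1 and 82.6 for Rida, which removes reactive imines. Pcbd1, which recycles the cofactor tetrahydrobiopterin, had a ratio of 6.47. Kidney and liver were not level for all of these genes. Cyp2j5, Pecr, Fah and Cyp4a10 had log2 differences of 0.87, 0.88, -0.85 and -0.89, near the limit of 1. Inmt is not in this group, since it was at 1.09 and 0.948 in small intestine and 716 and 763 in lung, the latter between its lowest and highest values in kidney and liver on the same scale (356 and 841).

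**Figure D5:**
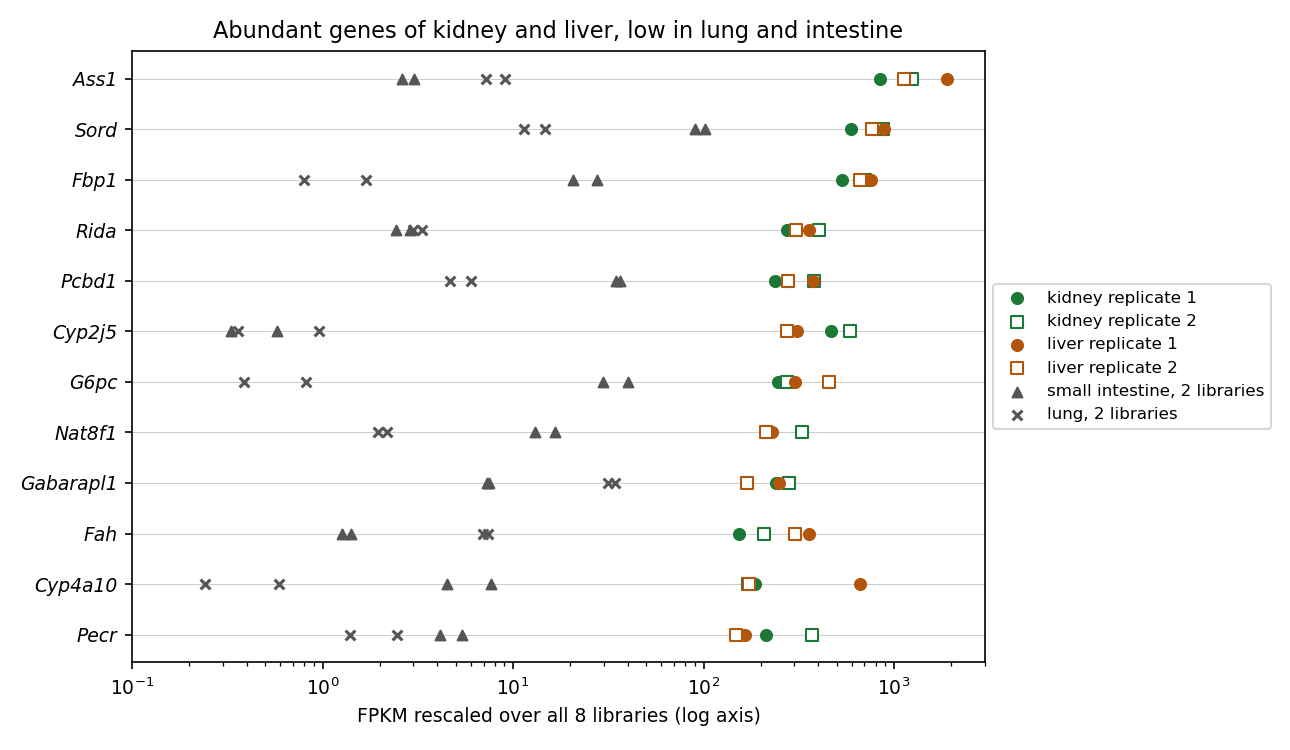
FPKM rescaled over all 8 libraries (log axis) of 12 of the 14 abundant genes of kidney and liver whose lowest kidney or liver value is at least 4 times the highest value in lung and small intestine. Green marks are kidney, brown marks liver (filled for replicate 1, open for replicate 2), triangles small intestine and crosses lung. Among the 12, Cyp2j5 shows the widest gap and Gabarapl1 the narrowest.

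Some steps are served by pairs of related genes. Of 24 pairs chosen by hand for a shared function, with earlier results of these data known, 13 had a member called higher in kidney and the other called higher in liver. Over all pairs 17 members were called higher in kidney and 22 higher in liver, and with a library left out these counts were lowest, at 14 and 18, without liver replicate 2. Ldhb, the heart-type lactate dehydrogenase, was at 481 and 612 in kidney and 2.53 and 2.83 in liver (log2 difference 7.21, adjusted p = 5.26e-07). Its partner Ldha was at 118 and 176 in kidney and 191 and 198 in liver and was not called. Gls2, the liver-type glutaminase, was at 134 and 118 in liver and 0.0280 and 0.179 in kidney. Hk1, the widely expressed hexokinase, was at 5.92 and 4.54 in kidney and 0.593 and 0.330 in liver. Pklr, the pyruvate kinase of liver and red cells, was at 15.6 and 15.3 in liver and 3.42 and 2.79 in kidney, and Pkm at 20.6 and 25.1 in kidney and 3.69 and 3.40 in liver.

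The same division was seen in lipid, water and hormone genes. Fabp1, the liver fatty acid binding protein, was at 2636 and 2463 in liver and 1.93 and 8.48 in kidney, and Fabp3 at 18 and 33.2 in kidney and 0.166 and 0.658 in liver. The peroxisomal oxidase Hao1 was at 103 and 122 in liver and 0.0284 and 0.223 in kidney and its relative Hao2 at 83.1 and 113 in kidney and 0.400 and 0.317 in liver. Acsm1 was at 199.9 and 184 in liver and 70.5 and 73.8 in kidney, while Acsm2 was among the leading kidney genes. Acsm1 was not called with either liver library left out (adjusted p = 0.177 and 0.146). Kl and Klb, co-receptors for different FGF hormones, had log2 differences of 4.66 and -2.62. Aqp9, which also carries glycerol, was at 52.9 and 56.2 in liver and 0 and 0.0955 in kidney, the opposite of Aqp1. The tight junction claudins Cldn1 and Cldn2 had log2 differences of -2.85 and 2.16, and the basic amino acid transporters Slc7a2 and Slc7a7 had -5.29 and 3.63. In other pairs both members lay on the same side, as did the alanine aminotransferases Gpt and Gpt2, at -4.55 and -3.14.

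Transporter and detoxification families differed in which tissue was higher. Over all genes tested, 14.5% were called higher in kidney and 13.7% higher in liver. Family members were not divided by the tissue through which they passed the filter. Of 19 Slc22a genes tested, which carry organic anions and cations, 15 were called higher in kidney and the other 4 were not called. Slc22a2, the renal cation transporter, was at 103 and 165 in kidney and 0.970 and 0.666 in liver. Slc22a7 was at 49.5 and 79.5 in kidney and 13.8 and 13.4 in liver. Of 9 Slco genes, 5 were higher in liver and 4 in kidney, with Slco1b2 at 281 and 281 in liver and 0.0592 and 0.424 in kidney. Slco4c1 was at 3.59 and 2.87 in kidney and 0 and 0 in liver. The exporter Abcg2 was called higher in kidney, at 32.8 and 32.7 in kidney and 8.59 and 8.19 in liver, as was Slc47a1, at 114 and 103 in kidney and 26.3 and 25.9 in liver. Abcc2 was called higher in liver, at 49.2 and 49.8 in liver and 21.1 and 12.1 in kidney. With either liver library left out Slc22a7, Slc47a1 and Abcc2 were not called (adjusted p from 0.0606 to 0.119). All 12 Cyp2c genes were higher in liver, as were 15 of 20 Gst genes and 11 of 17 Ugt genes, whereas 5 Ugt genes were higher in kidney. Members of these families are alike in sequence, and the split of reads between them is uncertain.

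Other families leaned to a tissue or were split between them, beside 14.5% of all genes tested called higher in kidney and 13.7% higher in liver. Water channels were mostly on the kidney side, where 6 of 9 Aqp genes were called, while Aqp8 and Aqp9 were called higher in liver. Of 13 claudins 8 were called higher in kidney, among them Cldn16 of the thick ascending limb, and 3 higher in liver. Of 6 Slc7a amino acid transporters 5 were called higher in kidney and Slc7a2 higher in liver. Of 8 Nat8 acetyltransferases 5 were called higher in kidney, and the common gene Nat8f1 was at 160.4 and 232 in kidney and 158 and 150.3 in liver. The carbonic anhydrases were split 5 to 4, with Car2 at 91.8 and 104 in kidney and 2.99 and 2.77 in liver and Car3 at 1222 and 1252 in liver and 12.4 and 24.4 in kidney. Of 16 Serpina genes 15 were called higher in liver, and of 8 Akr1c genes 6 were. All 4 Adh (alcohol dehydrogenase) genes were higher in liver, whereas of 14 Aldh genes, which act on the following aldehydes, 5 were called higher in liver and 9 were not called.

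Transcription factors formed 3 groups. Of 22 listed factors that passed, 10 were called higher in kidney, 9 higher in liver, and 3 were not called, among them Hnf4a and Nr1h4. Hnf4a, a nuclear receptor of both epithelia, was at 65.2 and 60.8 in kidney and 77.0 and 67.5 in liver (log2 difference -0.19, 95% interval -0.89 to 0.50). Pax8, a factor of the renal lineage, was at 4.54 and 5.14 in kidney and 0 and 0 in liver, and Pax2 was at 1.94 and 1.70 in kidney and 0 and 0.020 in liver. Emx1 was at 7.21 and 11.6 in kidney and 0 and 0.0496 in liver. On the liver side Cebpa was at 84.1 and 84.2 in liver and 5.20 and 7.33 in kidney, and Foxa3 was at 15.4 and 11.7 in liver and 0.0477 and 0.0277 in kidney. Foxa2 was at 8.37 and 7.54 in liver and 0.0137 and 0.0715 in kidney. The nuclear receptors Nr1i2 (PXR) and Nr0b2 (SHP) had log2 differences of -3.32 and -4.45. Of the 22 factors, 9 passed through kidney alone and 5 through liver alone, and of the 8 that passed in both tissues 1 was called higher in kidney and 4 higher in liver. The counts of 10 and 9 became 9 and 9 without kidney replicate 1 or without kidney replicate 2, where Emx2 was not called (adjusted p = 0.0578 and 0.0543).

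Hox genes, which mark position along the body axis, were mostly on the kidney side. Of 24 listed, 16 passed, and 12 were called higher in kidney, each through kidney alone. The 12 became 10 without kidney replicate 1, without kidney replicate 2 or without liver replicate 2. Hoxd8 was at 15.8 and 17.1 in kidney and 0.0498 and 0 in liver. Hoxb7 was at 8.08 and 9.92 in kidney and 0 and 0 in liver. The 4 that were not called were Hoxa5, Hoxa10, Hoxb8 and Hoxc8, and these were the only ones that passed the filter in both tissues. Hoxa5 was at 3.18 and 58.1 in kidney and 76.3 and 101 in liver, and Hoxa10 at 5.66 and 21.3 in kidney and 21.3 and 23.1 in liver. In all 4, kidney replicate 1 was the lowest of the libraries. Without kidney replicate 2 the log2 difference of Hoxa5 was -4.39 (adjusted p = 0.00506), and without kidney replicate 1 it was -0.56 (adjusted p = 0.174). Hoxa10 was also called higher in liver without kidney replicate 2 (-1.77, adjusted p = 0.00967). With both kidney libraries kept, Hoxa5 was called higher in liver when an FPKM of 1 was required in all 4 libraries (-2.50, adjusted p = 0.0119). With replicate number as a block, Hoxa5 was also called higher in liver (-2.50).

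The promoters of the most separated genes were searched for letters bound by factors of these epithelia. RefSeq windows of GRCm38.p6, from 250 bases before to 50 after the start, were found for 7945 of the tested genes. The C/EBP letters TTGCNNAAT, on both strands, were found in 2.40% of all 27025 promoters, in 1.66% of the tested genes, in 1.79% of 224 windows of kidney genes called beyond a log2 difference of 3, and in 6.38% of 329 windows of such liver genes. Of 66 windows of common abundant genes, 1.52% held them. The HNF4 letters CAAAGTCCA, on both strands, were found in 0.470% of all promoters, 0.541% of the tested genes, 1.34% of the kidney windows, 2.13% of the liver windows and 0% of the common windows. The TATA letters TATAAA, on the gene strand, were found in 8.93%, 5.05%, 12.1% and 15.2% of these sets, in the same order, and in 15.2% of the common windows. Each motif was searched without regard to the others, so a window can hold several. These shares are descriptions of letters and say nothing of binding.

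The 150 bases before the RefSeq start are shown for a liver gene and a kidney gene that hold some of these letters and for a common abundant gene that holds none, with the letters in capitals. They lie at chr9:121916306-121916455 (minus strand) for Cyp8b1, chr7:119554190-119554339 (plus strand) for Acsm2 and chr13:62888283-62888432 (minus strand) for Fbp1. In Cyp8b1 the HNF4 letters begin 67 bases and the TATA letters 31 bases before the start, and in Acsm2 the TATA letters begin 28 bases before it.
Cyp8b1: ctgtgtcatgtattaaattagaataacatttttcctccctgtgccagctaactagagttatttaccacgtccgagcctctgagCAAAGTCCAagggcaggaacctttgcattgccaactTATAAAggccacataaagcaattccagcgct
Acsm2: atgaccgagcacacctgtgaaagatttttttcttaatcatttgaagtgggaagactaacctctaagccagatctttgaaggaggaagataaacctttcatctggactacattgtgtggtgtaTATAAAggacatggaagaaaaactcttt
Fbp1: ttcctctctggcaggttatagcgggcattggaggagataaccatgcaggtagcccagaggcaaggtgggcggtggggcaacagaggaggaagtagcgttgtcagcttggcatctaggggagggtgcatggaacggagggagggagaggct

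The genes of other cells in the tissues were compared in the same fit. All 8 macrophage genes were called higher in liver (median -2.34), 4 of them through liver alone, with the Kupffer cell lectin Clec4f at 46.1 and 42.6 in liver and 0 and 0.0915 in kidney. C1qa, a complement gene of tissue macrophages, was at 30.4 and 29.0 in liver and 4.27 and 5.71 in kidney. Clec4f was at or near 0 in kidney and C1qa was not. Of 6 genes of sinusoidal endothelium, 5 passed through liver alone and were called higher in liver, with Clec4g at 26.2 and 18.6 in liver and 0 and 0.0459 in kidney, and Fcgr2b, which passed in both tissues, was not called. Of 8 general endothelial genes, 2 were called higher in kidney, 1 higher in liver and 5 were not called, against 14.5% and 13.7% of all genes tested. The list is too short to be set apart from these shares. Pecam1 was at 3.61 and 3.17 in kidney and 3.38 and 2.12 in liver and Tek at 3.71 and 2.81 in kidney and 2.32 and 2.85 in liver, with overlapping groups. Emcn was called higher in kidney, at 5.66 and 6.73 in kidney and 0.329 and 0.481 in liver, as was Plvap (log2 difference 1.34), whose call was lost with either liver library left out (adjusted p = 0.0721 and 0.129). Ehd3 was called higher in liver, at 28.1 and 20.7 in liver and 6.75 and 5.18 in kidney. Of 7 stellate and stromal genes that passed, 3 were called higher in liver (Dcn, Colec11 and Lrat, with log2 differences of -2.84, -3.30 and -1.21) and 4 were not called, with a list median of -0.57. Colec11 and Lrat passed through liver alone. Of 4 biliary genes that passed, Krt7, Epcam and Spp1 were called higher in kidney, at log2 differences of 2.62, 3.29 and 2.26, and these are also expressed by tubule epithelium. Spp1 was not called with either liver library left out (adjusted p = 0.105 and 0.0503). Of 4 smooth muscle genes, Myh11, Tagln and Cnn1 did not pass the filter and Acta2 (smooth muscle actin) was called higher in kidney, at 11.2 and 15 in kidney and 3.38 and 3.41 in liver.

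Traces of neighbouring tissue were low. The listed genes of lymphocytes, neutrophils, adrenal cortex, pancreatic acinar cells and adipocytes did not reach the filter, and the sum of each list was at most 3.43 FPKM in any of the 4 libraries. The listed urothelial genes summed to 3.87 and 3.35 in kidney and 0.192 and 0.0763 in liver. Of these Upk1a (uroplakin) passed, with a log2 difference of 0.96 that was not called (adjusted p = 0.00322) but was called higher in kidney in 6 of the other settings (1.08 to 2.87). The erythroid list summed to 603 and 2357 in kidney and 909 and 874 in liver. Its 4 haemoglobin genes had overlapping groups, were not called, and were called higher in kidney without kidney replicate 1. Alas2, the erythroid heme synthesis gene, was called higher in liver, at 44.5 and 35.3 in liver and 0.648 and 2.12 in kidney.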

How the data were processed

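Bulk RNA sequencing libraries of kidney and liver, with 2 biological replicates each by the study's description, were compared. Per the labels and the study's methods, the authors selected reads by sample index with bbduk, aligned them to the Ensembl mouse genome (GRCm38) with STAR 2.5.3a, and computed FPKM with DESeq2, and these FPKM values were deposited. Counting program, strand setting and treatment of multi-mapping reads are not given in the sources used here. Values were rescaled by the median of ratios over the 4 libraries (factors 1.44, 1.02, 0.798 and 0.894) and transformed to log2(FPKM + 1), which understates the change of low genes. Genes that reached an FPKM of 1 in 2 or more of them were tested with limma 3.58.1 (lmFit, eBayes with trend, R 4.3.3), two-sided, with Benjamini-Hochberg adjustment over 11476 genes, and called at an adjusted p below 0.05 and a log2 difference beyond 1. All adjusted p given are from limma. An exact permutation test of 2 against 2 cannot go below p = 0.333333, so p measures the spread between these libraries under a variance shared across genes.

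Low values were whole multiples of the value of 1 read for 94.5% to 96.0% of them (tolerance 0.02), and depth was taken from that step. Coordinates were matched by symbol to the GENCODE M21 annotation of GRCm38 for 51847 of the 52195 genes (99.3%), and promoter windows were taken from RefSeq. Genes named in the text were the 12 leading called genes of each tissue (largest difference, separate groups, mean FPKM of at least 10 in the higher tissue, at most 3 with the same symbol up to its first digit, by which Mup-ps19 counted apart from the Mup genes), the 15 most abundant common genes outside mitochondrial, ribosomal protein, predicted and haemoglobin genes, the 10 genes that differed most between the kidney libraries, and listed genes, pairs and families. The members and lists were chosen with earlier results of these data known. Other scalings, filters, pseudocounts and left-out libraries were tried, with their effect given in the closing section. Some genes that meet these rules are not reported here. The fit was also run on simulated data, whose outcome is not given here. Python 3.11.15, pandas 2.3.3 and numpy 2.4.6 were used.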

Additional observations from a re-analysis of the deposited data

How the results depend on the processing

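The 24 leading genes stayed called in their direction in every setting in which they were tested, and no gene called in the main comparison was called in the opposite direction in any setting. Counts of genes higher in kidney and liver (1665 and 1571) became 2593 and 1122 with the values as deposited, 4709 and 877 with mitochondrial genes left out and equal sums, and 611 and 865 with an FPKM of 1 required in all 4 libraries, where genes silent in a tissue are not tested and 41.4% of the calls were on the kidney side. With each library left out in turn they ran from 1190 to 1749 in kidney and from 1115 to 1559 in liver. limma-voom on the recovered reads, added after the data were seen, gave 2009 and 1878. The 124 common abundant genes became 70 with quantile normalization, 57 with mitochondrial genes left out, 270 at an FPKM of 50 and 50 at an FPKM of 200, and ran from 122 to 139 without each library. The mean correlation of kidney with liver across genes, 0.570 with the main settings, was 0.466 with a pseudocount of 0.1, 0.777 over genes above 0 in any library, 0.729 with an FPKM of 1 in all 4 libraries, 0.539 as a rank correlation and 0.868 on untransformed FPKM. With replicate number as a block there were 1662 and 1603 calls. Pck1, Cyp7b1 and Acadm were among the listed genes not called there (adjusted p = 0.146, 0.0819 and 0.0742 in limma). Differences between replicates 1 and 2 correlated at 0.0372 between kidney and liver over 11476 genes. This value cannot decide whether equal numbers mark the same mouse, since the kidney difference ran with exon length and the liver difference did not. The samples were treated as unpaired. Among listed genes, Pck1, Slc2a2, Cyp7b1, Wnk1, Cat, Acadm, Cyp2e1, Cyp4a14 and Atp6v0d2 lost their call in several settings. The liver libraries had the fewer reads, and 3 reads on 1 kb there equal a rescaled FPKM of up to 0.410, which limits low genes.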

Other observations

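The kidney libraries stood furthest apart in 10 genes, of which 9 were lower in kidney replicate 1. Nr2f1, a nuclear receptor, had a rescaled FPKM of 0.191 and 22.4 in kidney and 37.9 and 35.2 in liver. Khdrbs1 and Hnrnpd, which code for RNA-binding proteins, were at 4.78 and 66.2 in kidney against 82.6 and 79.3 in liver, and at 3.17 and 40.8 against 60.6 and 64.7. The other genes of this kind were Hoxa5, H3f3c and the predicted genes Gm15027, Gm14536 and Gm9762. In all 8 kidney replicate 2 was below both liver values and kidney replicate 1 further below them, and H3f3c alone was called (higher in liver, adjusted p = 0.0390 in limma). Mir5125 was higher in kidney replicate 1, at 29.1 and 3.58, and Gm45660 was at 3.86 and 27.0.

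The 8 genes followed the same division in the other tissues. As deposited, Hoxa5 had an FPKM of 101 and 25.4 in lung and 1.59 and 2.26 in small intestine, and Nr2f1 had 35.4 and 2.5 in lung and 0.0839 and 0.0347 in small intestine. Rescaled over 8 libraries, 118 tested genes were at least 2-fold higher in each of kidney replicate 2, both liver libraries and lung replicate 1 than in each of the other 4 libraries, and the count for the reverse order was 0. This set of libraries was chosen after the values were seen, follows no label, and crosses tissues and replicates. Of the 118 genes, 80 were called higher in liver and 0 higher in kidney, against 13.7% and 14.5% of all genes tested. These counts are largely fixed by the choice of the genes, which set both liver libraries at least 2-fold above kidney replicate 1. In 42 of the 118 genes kidney replicate 2 was within 2-fold of the liver mean, and of these 6 were called higher in liver and 36 were not called. What the libraries share was not tested.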
